A study of Mus musculus with 23 samples.

Results

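DC1a cells are the CD8hi CD172- dendritic cells of the mouse spleen, and their response to TLI was read from 6 of the 23 RNA-seq libraries of the series, chosen by the population and treatment named in the sample labels. All 6 came from wild type BALB/c mice whose spleens were pooled before cells were sorted, 4 from pools of mice treated with TLI and 2 from pools of untreated mice. TLI is used without expansion in the labels and usually means total lymphoid irradiation, and the sources used here give neither its dose nor the time between treatment and sorting. The libraries of TLI pools 1 and 2 and both untreated libraries carry batch number 1, and those of TLI pools 3 and 4 carry batch number 2, so batch 2 has no untreated library. By the study's gating, dendritic cells carried MHC class II and CD11c and were negative for markers of other lineages, among them CD3, B220, CD56 and Gr-1. The stains listed for sorting, after an enrichment for dendritic cells, include B220 but not CD3, CD56 or Gr-1. Whether cells with those 3 markers were gated out of the sequenced libraries is therefore not certain. RNA was copied and amplified with a kit for small inputs, without molecular identifiers. Nothing beyond the pool number says how the mice of one pool relate to those of another. The p-values measure the spread between libraries of the same group, shared over all sorted populations. Populations sorted from the same pool were counted as separate libraries.

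Conventional type 1 dendritic cells (cDC1) depend on the transcription factors Irf8 and Batf3, carry the chemokine receptor Xcr1 and the dead-cell receptor Clec9a, and are known for presenting antigens of other cells to CD8+ T cells. They arise from dividing precursors in the bone marrow and are replaced within days. Irradiation of lymphoid tissue is used before transplantation to favour tolerance of the graft.

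The DC1a libraries held between 25918886 and 36997890 counts, and 17742 to 19610 genes had at least 1 count in a given library. A count of 3, taken as the floor of detection, corresponded to 0.0811 to 0.116 CPM (counts scaled to a common library size with TMM factors) across these libraries, and floors cover counting error only, since amplified reads are not independent molecules. The libraries were least alike between the batches of TLI libraries. Pearson's r of log2 CPM over genes was 0.911 within TLI batch 1, 0.903 within TLI batch 2 and 0.904 between the untreated libraries. The 4 pairs of a batch 1 TLI library and an untreated library had a mean r of 0.860, those of batch 2 TLI and untreated 0.878, and those of the TLI batches with each other 0.836. TLI libraries were thus less alike across batches than the libraries of either batch were to the untreated ones. The untreated libraries, which are of batch 1, had the higher mean r with TLI batch 2. What set this order was not tested. In the fit of all 23 libraries, the term for batch, which rests on TLI libraries alone, was past the threshold for 3413 of 19597 genes (17.4%). All populations of a pool share its batch number. The fit counted them as separate libraries, so this count does not rest on independent pools.

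Within the DC1a libraries the sorting genes lay in the order that the labels name, with Cd8a above Sirpa. Their levels in the other populations are not compared here. Cd8a, the CD8 alpha chain, was at 690.4, 913, 375 and 380.4 CPM in TLI pools 1 to 4 and at 496 and 479 CPM in untreated pools 1 and 2. Sirpa, which encodes CD172a, was below 1 CPM in every DC1a library, with means of 0.409 CPM ± 0.331 (SD, n = 4) after TLI and 0.236 CPM ± 0.0725 (SD, n = 2) without it.

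The main comparison set TLI against untreated DC1a cells in an edgeR quasi-likelihood fit of all libraries, with the batch as a term and p-values adjusted by Benjamini-Hochberg over 19597 genes. A fitted log2 fold change in this model is adjusted by a batch term that is estimated from TLI libraries of all populations. It can therefore differ from the ratio of the levels in DC1a cells. As batch 2 has no untreated library, fitted changes and unadjusted counts can follow batch 1. For mitochondrially encoded genes the median fitted change was -0.90, beside differences in log2 CPM of -1.63 for batch 1 and 1.20 for batch 2. At a threshold of 0.05 on the adjusted p, 1 gene rose (0.00510% of the genes tested) and 1 gene fell (0.00510%). At an unadjusted p under 0.05 there were 807 higher genes (4.12%) and 1105 lower genes (5.64%), and DESeq2 on the same model called 526 genes higher (2.68%) and 222 lower (1.13%). With 4 libraries against 2, an exact two-sided permutation test of a single gene cannot give a p below 0.133, the share of 2 among 15 arrangements.

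Ms4a6d rose with TLI. This gene on the minus strand of chromosome 19 (chr19:11586604-11604849, GRCm38) encodes a membrane protein of the MS4A family that is known from macrophages and other myeloid cells. It stood at 9.31, 8.10, 3.70 and 6.24 CPM in TLI pools 1 to 4 and at 0.148 and 0.411 CPM in the untreated pools. All 4 TLI libraries were above both untreated ones. The means were 6.84 CPM ± 2.44 (SD, n = 4) and 0.279 CPM ± 0.186 (SD, n = 2), a ratio of 24.5, which was 31.2 for batch 1 and 17.8 for batch 2. Its log2 fold change was 4.79 (SE 0.64, adjusted p = 0.0252), and it was past the threshold in 6 of 18 alternative fits, over which the adjusted p ran from 8.03e-12 to 0.842. The fits that lost the call included those without TLI pool 1 (log2 fold change 4.65, adjusted p = 0.0995), TLI pool 2 (4.76, 0.0887), TLI pool 4 (4.75, 0.0716), untreated pool 1 (4.23, 0.264) or untreated pool 2 (5.67, 0.152). In the other sorted populations of the same mice its log2 fold change was 3.01 in DC1b cells (adjusted p = 0.0257), 1.86 in DC2 cells (adjusted p = 0.334) and 11.70 in DC3 cells (adjusted p = 0.000103). The levels in those populations are not given here, so 11.70 is not read as a measure of size.

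Igkv8-16, an immunoglobulin kappa variable segment (chr6:70386672-70387252, minus strand), was the gene that fell, and it is outside the rule for named genes because its groups overlap. It had 0, 0, 1.16 and 2.43 CPM in TLI pools 1 to 4 and 0.333 and 14.3 CPM in the untreated pools, so a single untreated library carried the difference. Its fitted log2 fold change was -13.73 (SE 1.98, adjusted p = 0.0252 by the edgeR test), a value that depends on the counts of 0 and is no measure of size. It was past the threshold in 5 of 18 alternative fits, and the adjusted p was 0.636 without untreated pool 2. Leaving out any 1 of the TLI pools also lost the call, with an adjusted p of 0.120 to 0.205. Segments of this family share sequence, and the counts of a single one are uncertain.

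No gene of cDC1 identity changed past the threshold. Of 28 such genes, 2 were higher and 1 lower at an unadjusted p under 0.05, beside 4.12% and 5.64% of all genes tested. In 10, all 4 TLI libraries were above both untreated ones (5.65% of all genes tested), against 3 below (7.58%). The median log2 fold change of the list was 0.83, beside 0.15 over all genes tested. Apart from the most highly expressed members of each list and the genes set by the naming rule, members are named here and in what follows after their values were seen.

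Xcr1 had 651, 1169, 734 and 842 CPM in TLI pools 1 to 4 and 504 and 427 CPM in the untreated pools. Irf8, the lineage's leading transcription factor, had 742, 1033, 741 and 787 CPM against 609.7 and 503 CPM. Both were higher in every TLI library, with ratios of 1.82 and 1.48, but their fitted changes did not pass the test (log2 fold change 0.68, SE 0.57, adjusted p = 0.72 for Xcr1 and 0.86, SE 0.75, adjusted p = 0.737 for Irf8). Batf3 was lower in every TLI library, at 207, 185, 193 and 214 CPM against 323 and 259 CPM. Clec9a was at 391 and 408 CPM in batch 1, 707 and 704 CPM in batch 2, and 616 and 578 CPM without treatment, so the TLI batches lay on opposite sides of the controls.

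Naaa, a lysosomal lipid hydrolase, had 2142, 3563, 1286 and 1313 CPM after TLI and 884 and 731 CPM without it. Its groups did not overlap, and its log2 fold change of 1.61 (SE 0.49) had an adjusted p of 0.348 in edgeR and of 0.0216 in DESeq2. Ppt1, the lysosomal thioesterase and most abundant member of the list, had 7314 and 11678 CPM in TLI batch 1 but 2728 and 2485 CPM in batch 2, where the untreated libraries stood at 2596 and 2536 CPM. Cd24a, a surface glycoprotein used to gate cDC1, had 1368, 531, 531 and 651 CPM against 341 and 249 CPM. Zbtb46, a factor of conventional dendritic cells, had 88.9, 133, 47.6 and 60.4 CPM against 29.4 and 36.1 CPM.

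**Figure D1:**
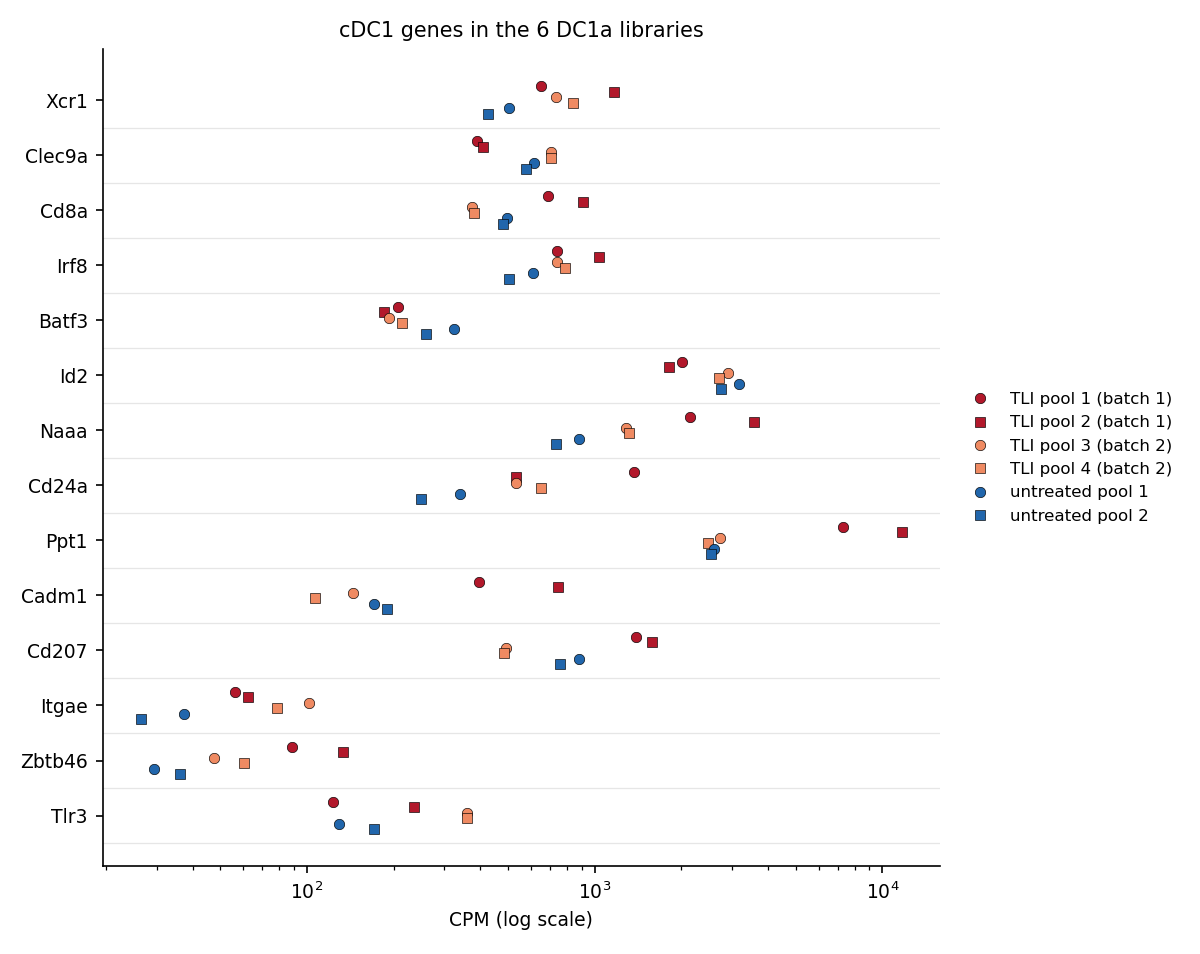
Levels of 14 cDC1 genes in the 6 DC1a libraries, in CPM on a log axis, 1 point per library. Xcr1, Irf8 and Naaa have every TLI point to the right of the untreated points, while for Clec9a and Cd8a the batches of TLI libraries (dark and light red) fall on opposite sides of the untreated points (blue).

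Markers of other blood cells differed between the batches of TLI libraries, and their part in the other differences was not tested. In bulk RNA, more cells of a type and more RNA per cell cannot be told apart. Of 13 tested erythroid markers, 12 were higher at an unadjusted p under 0.05, beside 4.12% of all genes tested. None passed the adjusted threshold. Their summed level was 133194 and 26161 CPM in TLI pools 1 and 2, 398 and 172 CPM in pools 3 and 4, and 1625 and 140.5 CPM in the untreated pools. Hba-a1, an alpha globin, had 42697, 8306, 126 and 49.6 CPM after TLI and 631 and 47.7 CPM without it. Rhd, which encodes an erythrocyte membrane protein, had 706 and 102 CPM in batch 1, 0 CPM in both libraries of batch 2, and 0.148 and 0 CPM in the untreated ones. The batch 2 libraries alone against the untreated ones gave 0 erythroid markers at an unadjusted p under 0.05.

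T cell and NK cell markers were highest in TLI batch 1 in their summed levels. The 18 T cell markers summed to 351 and 249 CPM in TLI batch 1, 11.1 and 13.1 CPM in batch 2, and 11.3 CPM in each untreated library. At an unadjusted p under 0.05, 9 of 18 were higher, beside 4.12% of all genes tested. Lck, the T cell receptor kinase, had 50.1 and 47.0 CPM in batch 1 and at most 0.225 CPM in the other 4 libraries. Cd3e, Trac, Trbc1 and Cd2 were at 0 in both batch 2 libraries and in both untreated ones. Cd3d, another chain of the T cell receptor complex, had 13.5, 9.20, 4.73 and 7.15 CPM after TLI and 1.04 and 1.36 CPM without it, so it was higher in both batches. Of 13 tested NK cell markers, 9 were higher at an unadjusted p under 0.05 (background 4.12%). Their list had summed levels of 494 and 431 CPM in batch 1, 233 and 251 CPM in batch 2, and 109 and 161 CPM without treatment. Nkg7, a granule protein of cytotoxic cells, had 127, 112, 22.2 and 4.27 CPM after TLI and 0.185 and 0 CPM in the untreated pools, so it was also present in batch 2. Klrk1, the receptor NKG2D and the most abundant gene of the list, had 125, 127, 165 and 239 CPM against 102 and 154 CPM, and its groups overlapped. With the batch 2 libraries alone, 0 T cell markers and 0 NK cell markers were past an unadjusted p of 0.05.

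B cell markers summed to 1694 and 904 CPM in TLI batch 1, 299.9 and 463 CPM in batch 2, and 355 and 331 CPM without treatment. None of the 18 was past an unadjusted p of 0.05. Ighm, the heavy chain constant region of IgM, made up most of this sum with 1433, 742, 231 and 373 CPM against 284 and 232 CPM. Immunoglobulin genes took 1.76% of the counts of TLI pool 1 and between 0.147% and 0.598% of the others. Monocyte and macrophage markers summed to 1774 and 2051 CPM in TLI batch 1, 694 and 589 CPM in batch 2, and 950.0 and 988 CPM without treatment. Lyz2, which is lysozyme and the largest of them, had 1361, 1453, 536 and 435 CPM against 741 and 749 CPM. Neutrophil markers were low throughout, with sums of 8.74 to 22.0 CPM after TLI and 7.55 and 2.96 CPM without it. S100a9, a calprotectin subunit, was at 2.67, 1.82, 6.05 and 3.43 CPM after TLI and at 0 in both untreated pools.

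**Figure D2:**
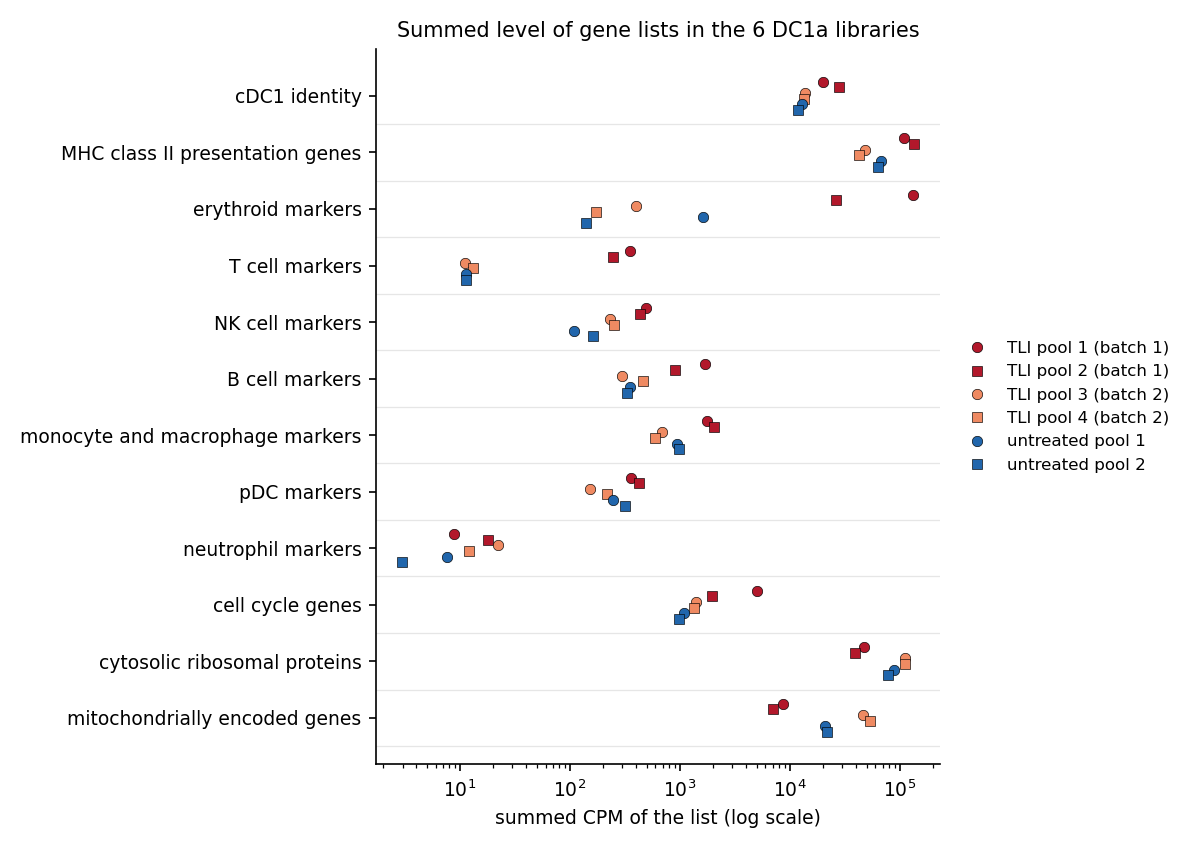
Summed CPM of 12 gene lists in the 6 DC1a libraries, on a log axis, 1 point per library. Erythroid and T cell markers are higher in both TLI batch 1 libraries (dark red) than in any other library, and the batch 2 libraries (light red) lie with or near the untreated ones (blue).

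Plasmacytoid dendritic cell (pDC) markers included genes that were lower in both batches. Siglech, the pDC lectin, was at 0 in all 4 TLI libraries and at 5.18 and 11.3 CPM in the untreated pools. Against the floor of 3 counts its mean was at least 76.2-fold lower after TLI. Klk1, a kallikrein found in pDC, was also at 0 in all 4 TLI libraries and at 1.07 and 15.4 CPM in the untreated ones, again a mean at least 76.2-fold lower. Cox6a2, a cytochrome c oxidase subunit of pDC and muscle, had 0.567, 0, 0 and 0 CPM against 7.70 and 16.2 CPM. None of these 3 passed the threshold in edgeR (adjusted p = 0.163 for Siglech, 0.314 for Klk1 and 0.309 for Cox6a2), while DESeq2 called all 3 of them. Tcf4, the factor that defines pDC, had 17.2, 10.3, 9.46 and 18.5 CPM against 16.5 and 21 CPM. Irf7 had 120.3, 139, 39.3 and 32.0 CPM against 26.8 and 38.7 CPM. Of the 18 markers, 6 had all TLI libraries below both untreated ones (background 7.58%) and none had all above (5.65%). The median difference of the list from untreated was -0.57 (log2 CPM) for batch 1 and -0.91 for batch 2, beside 0.00 and 0.00 over all genes tested.

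Cell cycle genes were higher in TLI DC1a cells than in untreated ones in the levels of many members. Of 40 genes, 16 had all 4 TLI libraries above both untreated ones and none had all below, beside 5.65% and 7.58% of all genes tested. At an unadjusted p under 0.05, 9 were higher and none lower, beside 4.12% and 5.64% of all genes tested. None passed the adjusted threshold, and DESeq2 called 5 higher. The median log2 fold change was 2.13. In levels, the median difference from untreated was 2.02 (log2 CPM) for TLI batch 1 and 0.58 for batch 2, where the same medians over all genes tested were 0.00 and 0.00. The summed level was 5062, 1982, 1416 and 1334 CPM in TLI pools 1 to 4 and 1098 and 983 CPM in the untreated pools, with pool 1 farthest from the rest. The batch 2 libraries alone against the untreated ones gave 1 higher gene at an unadjusted p under 0.05. The erythroid and T cell markers described above were also highest in TLI pools 1 and 2, and their part in these sums was not tested.

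Pcna, the sliding clamp of DNA polymerases, had 539.5, 291, 174 and 226 CPM after TLI and 198 and 189 CPM without it. Birc5, a subunit of the chromosomal passenger complex, had 433, 100, 152 and 116 CPM against 97.4 and 84.3 CPM, with no overlap. Rrm2, the regulated subunit of ribonucleotide reductase, had 499.7, 117, 32.9 and 23 CPM against 20.5 and 18.0 CPM, and its log2 fold change of 3.58 (SE 1.04) had an adjusted p of 0.334. Kif11, the kinesin that separates spindle poles, had 43.0, 13.5, 26.2 and 11.1 CPM against 3.48 and 3.20 CPM. Bub1, a kinase of the spindle checkpoint, had 31.7, 15.6, 10.4 and 16.9 CPM against 4.62 and 0.411 CPM. These 2 mitotic genes stood more than 2-fold apart in every pair of a TLI and an untreated library.

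Ndc80 and Ncapg, which are outside the list and were picked after their values were seen, met the same criterion. Ndc80, a kinetochore subunit that binds microtubules, had 37.1, 28.2, 15.1 and 20.2 CPM after TLI and 0.592 and 0.780 CPM without it, a ratio of mean CPM of 36.6. Ncapg, a subunit of condensin, had 42.6, 18.9, 13 and 12.9 CPM against 1.66 and 3.04 CPM, and its exons overlap Lcorl on the other strand. Neither passed the adjusted threshold (log2 fold change 7.73, SE 2.29, adjusted p = 0.338 for Ndc80 and 3.25, SE 0.84, adjusted p = 0.28 for Ncapg).

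The 250 bases before the annotated start of these 4 mitotic genes are shown because cell cycle promoters are known for short shared elements, the CCAAT box and the cell cycle genes homology region TTTGAA. Sequences are from RefSeq on GRCm38.p6, written 5′ to 3′ on the strand of the gene, and capitals mark CCAAT and TTTGAA on either strand (as ATTGG and TTCAAA on the other). The regions are chr17:71526858-71527107 (minus strand) for Ndc80, chr5:45669675-45669924 (plus) for Ncapg, chr19:37376132-37376381 (plus) for Kif11 and chr2:127831860-127832109 (minus) for Bub1.
Ndc80: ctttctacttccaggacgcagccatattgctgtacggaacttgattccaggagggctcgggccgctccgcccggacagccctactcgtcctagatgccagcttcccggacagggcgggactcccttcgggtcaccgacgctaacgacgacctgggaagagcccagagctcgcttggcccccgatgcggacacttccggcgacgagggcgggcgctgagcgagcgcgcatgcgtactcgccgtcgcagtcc
Ncapg: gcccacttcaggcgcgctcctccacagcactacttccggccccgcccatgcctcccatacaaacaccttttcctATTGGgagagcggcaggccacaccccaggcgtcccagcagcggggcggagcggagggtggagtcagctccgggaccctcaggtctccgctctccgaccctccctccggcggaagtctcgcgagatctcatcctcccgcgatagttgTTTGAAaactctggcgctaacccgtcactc
Kif11: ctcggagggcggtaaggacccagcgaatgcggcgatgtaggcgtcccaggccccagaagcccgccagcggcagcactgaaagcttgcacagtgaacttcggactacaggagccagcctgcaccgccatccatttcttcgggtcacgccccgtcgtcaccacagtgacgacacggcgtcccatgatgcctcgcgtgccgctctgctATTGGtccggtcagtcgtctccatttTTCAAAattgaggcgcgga
Bub1: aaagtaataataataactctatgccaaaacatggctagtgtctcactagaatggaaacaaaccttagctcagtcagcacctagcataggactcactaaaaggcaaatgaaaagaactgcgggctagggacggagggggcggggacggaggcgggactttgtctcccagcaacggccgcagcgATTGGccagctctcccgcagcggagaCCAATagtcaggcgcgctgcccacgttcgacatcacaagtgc
Ncapg and Kif11 hold 1 copy of each element, Bub1 holds 2 copies of CCAAT, and Ndc80 holds neither. Over the list, 33 of 40 cell cycle genes had a promoter in the table, of which 25 (75.8%) hold CCAAT and 8 (24.2%) hold TTTGAA in this window. Among all 27025 promoters, 34.5% hold CCAAT and 16.3% hold TTTGAA.

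Genes of the DNA damage response showed smaller differences. Of 29 tested p53 target genes, 2 were higher and none lower at an unadjusted p under 0.05, near the background of 4.12% and 5.64% over all genes tested, and the median log2 fold change was 0.47. Cdkn1a, the cell cycle inhibitor p21, had 66.7, 123, 37.1 and 26.8 CPM after TLI and 48.6 and 47.9 CPM without it, with batch 1 above and batch 2 below the controls. Mdm2, the p53 ligase, had 35.8, 32.9, 27.1 and 31.6 CPM against 42.6 and 55.9 CPM, lower in every TLI library. Fas, a death receptor, had 42.9, 30.6, 49.3 and 45.7 CPM against 90.2 and 92.7 CPM and was also lower in all 4. Ccng1 had 58.4, 70.5, 66.9 and 65.5 CPM against 43.3 and 35.7 CPM. Among these targets the groups separated in 3 with TLI above and in 2 with TLI below, beside 5.65% and 7.58% of all genes tested. Of 37 DNA damage sensing and repair genes, 3 were higher and 1 lower at an unadjusted p under 0.05 (background 4.12% and 5.64%). Chek2, a checkpoint kinase, had 15.5, 10.6, 1.80 and 3.30 CPM against 0.518 and 0 CPM. None of the 17 tested BCL2 family genes was past an unadjusted p of 0.05, and Bcl2a1d, the most abundant of them, had 794, 775, 2102 and 1961 CPM against 1543 and 1628 CPM.

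Type I interferon-stimulated genes had several members with higher levels after TLI. Of 34, 7 were higher and none lower at an unadjusted p under 0.05, beside 4.12% and 5.64% of all genes tested. In 5 all TLI libraries were above both untreated ones and in none were all below (background 5.65% and 7.58%), and the median log2 fold change was 1.04. None passed the adjusted threshold, and DESeq2 called 6 higher. The summed level was 1758, 1943, 1096 and 1166 CPM in TLI pools 1 to 4 and 1049 and 1106 CPM in the untreated pools. With the batch 2 libraries alone, 1 gene was higher and 0 were lower at an unadjusted p under 0.05. Irf7, the factor that amplifies interferon responses, had a log2 fold change of 1.73 (SE 0.45, adjusted p = 0.28), with batch 2 values inside or near the untreated range. Mx1 had 65.5, 88.5, 66.5 and 57.5 CPM against 78.5 and 80.3 CPM, and its groups overlapped.

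Antigen presentation genes split by batch. MHC class II presentation genes summed to 108764 and 136144 CPM in TLI batch 1, 48679 and 42501 CPM in batch 2, and 67175 and 63280.3 CPM without treatment. Cd74, the invariant chain, had 48124 and 62649.7 CPM in batch 1, 19846 and 15376 CPM in batch 2, and 27120.3 and 25654 CPM in the untreated pools. Its level relative to untreated was 2.1 in batch 1 and 0.667 in batch 2. H2-Aa, a class II alpha chain, had 18506, 20506, 12103 and 11564 CPM against 14957 and 13742 CPM, in the same order. The class I light chain B2m had the opposite order, at 3363 and 3078 CPM in batch 1, 9667 and 10446 CPM in batch 2, and 6727 and 6853 CPM without treatment. Tapbpl, a class I peptide editor, had 37.4, 74.2, 13.7 and 13.9 CPM against 6.73 and 5.67 CPM and was higher in every TLI library.

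Maturation genes differed from each other. Over the list, the median difference from untreated was -0.09 (log2 CPM) for batch 1 and -0.90 for batch 2. Cd83, a surface protein of maturing dendritic cells, had 2202, 4005, 399.9 and 419 CPM after TLI and 718 and 963 CPM without it. Ccr7, the receptor for lymph node homing, had 914, 1354, 157 and 57.5 CPM against 443 in both untreated pools. For both genes batch 1 lay above the controls and batch 2 below them. Samsn1, an adaptor of immune cells, had 306, 261, 274 and 218 CPM against 500.5 and 619 CPM and was lower in every TLI library. Of the 30 maturation genes, 6 had all TLI libraries below both untreated ones (background 7.58%) and none had all above. Cd86, a ligand of CD28, had 519, 702, 537 and 415 CPM against 445 and 424 CPM. The cytokine Il1b had 2539.6 and 3129 CPM in batch 1, 427 and 335 CPM in batch 2, and 1491 and 1953 CPM without treatment.

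Tolerance-linked mediators had few separated members. Tgfb1, the regulatory cytokine, had 18.5, 29.9, 18.1 and 15.9 CPM after TLI and 6.66 and 11 CPM without it, higher in every TLI library, with a log2 fold change of 1.58 and an adjusted p of 0.403 in edgeR and 0.0177 in DESeq2. Ahr, the aryl hydrocarbon receptor, had 102, 77.5, 47.1 and 74.4 CPM against 133 and 158 CPM, lower in every TLI library. Ccl9, a chemokine, had 3.36, 23.7, 5.79 and 8.93 CPM against 1.70 and 0.164 CPM. Of 29 tested cytokine genes, 3 were higher and none lower at an unadjusted p under 0.05 (background 4.12% and 5.64%). Cd36, a scavenger receptor among the 23 tested apoptotic cell uptake genes, had 679.6, 953, 343 and 344 CPM against 318 and 272 CPM. Among Toll-like receptors, Tlr3, which senses double-stranded RNA, had 123, 236, 361 and 361 CPM against 129 and 171 CPM, and Tlr11 had 136, 253, 236 and 320.4 CPM against 158 and 121 CPM. Both overlapped the untreated values through TLI pool 1.

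Genes of cell metabolism and translation also split by batch. Of 79 cytosolic ribosomal protein genes, 53 were lower and none higher at an unadjusted p under 0.05 (background 5.64% lower), none passed the adjusted threshold, and the median log2 fold change was -0.80. Their summed level was 47145 and 39177 CPM in TLI batch 1, 112437 and 111679 CPM in batch 2, and 89024 and 79001 CPM without treatment. The count of lower genes was 30 without TLI pool 1, 22 without TLI pool 2, and 0 with the batch 2 libraries alone. Mitochondrially encoded genes summed to 8737 and 7001 CPM in batch 1, 46282 and 53741 CPM in batch 2, and 20905 and 21807 CPM without treatment. The mitochondrial genome took 0.844% and 0.712% of counts in batch 1, 4.58% and 5.28% in batch 2 and 2.59% and 2.52% in the untreated pools. Respiratory chain subunits lay in the same order, with a median difference from untreated of -0.97 for batch 1 and 0.38 for batch 2. Glycolysis genes had the reverse order, with 1.16 and -0.29. Ldha, lactate dehydrogenase A, had 661, 1094, 251 and 173 CPM against 359.6 and 255 CPM.

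**Figure D3:**
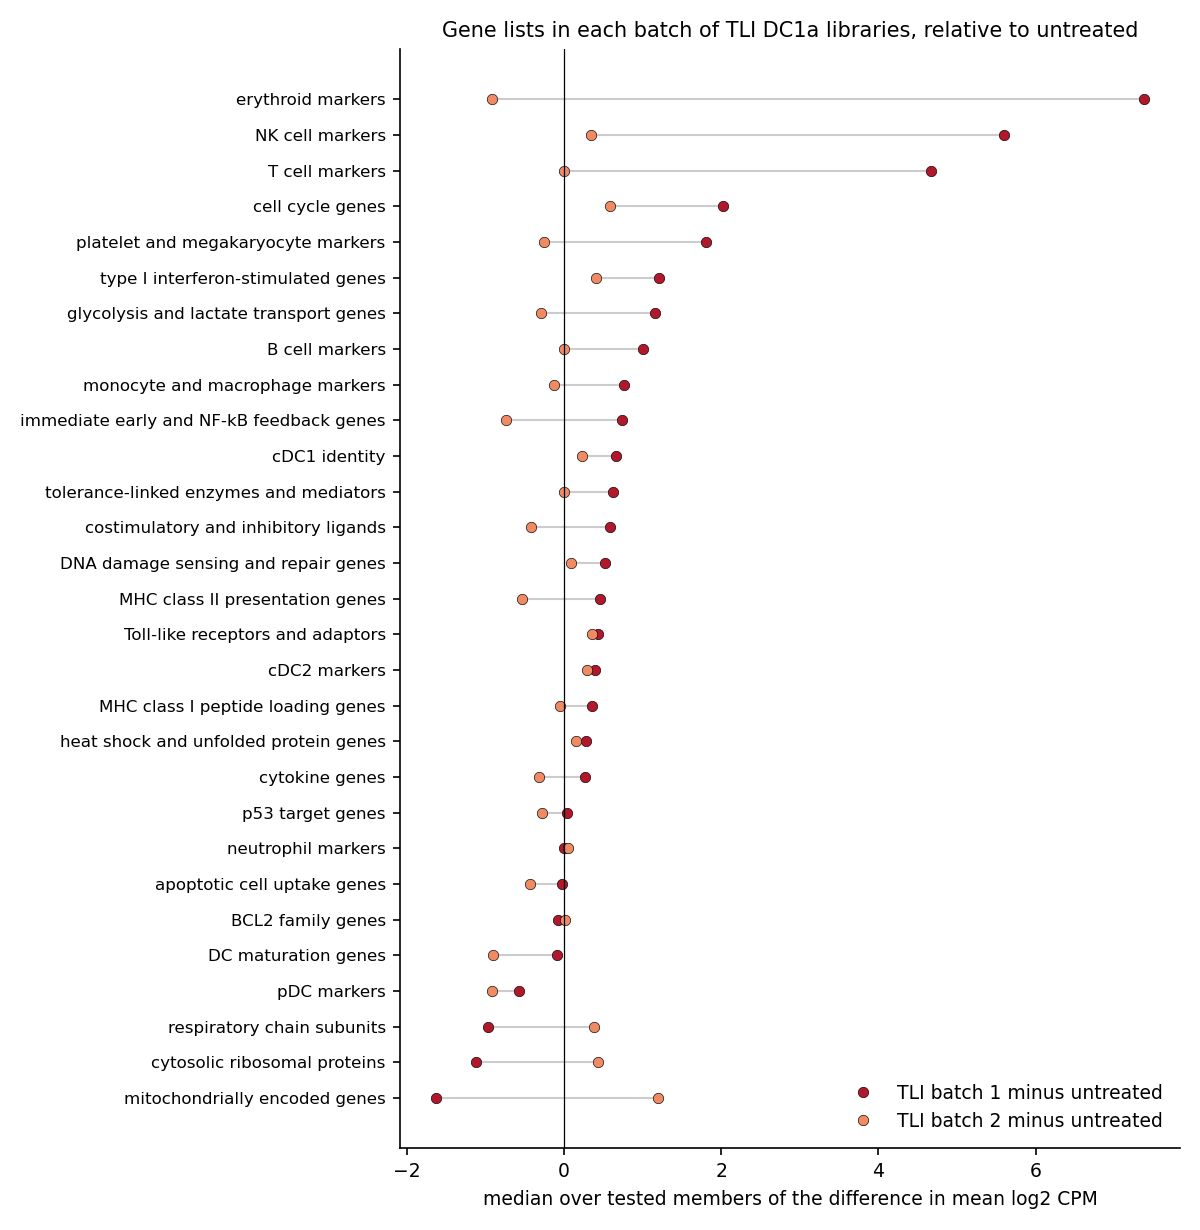
For each of 29 gene lists, the median over its tested members of the difference in mean log2 CPM between the TLI libraries of a batch and the untreated libraries (dark red batch 1, light red batch 2). The medians of the mitochondrially encoded genes are -1.63 and 1.20 and those of the ribosomal protein genes -1.12 and 0.43, on opposite sides of 0, while those of the cell cycle genes, 2.02 and 0.58, are on the same side.

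Among stress genes, Hspa8, the constitutive HSP70 chaperone, had 1228, 1589, 811 and 862 CPM after TLI and 665 and 484 CPM without it. All 4 TLI libraries were above both untreated ones, and the log2 fold change was 1.12 (SE 0.26), with an adjusted p of 0.221 in edgeR and 0.000809 in DESeq2. The inducible Hspa1a had another pattern, at 11.7 and 13.6 CPM in batch 1, 226 and 244 CPM in batch 2, and 20.7 and 23.1 CPM without treatment. Xbp1, a factor of the unfolded protein response, had 298, 289.9, 62.8 and 65.8 CPM against 40.1 and 42.2 CPM. Immediate early genes differed from each other. Fos had 1269, 1837, 840.3 and 878 CPM against 754 and 706 CPM, higher in every TLI library. Fosb had 154, 83.0, 155 and 152 CPM against 334 and 322 CPM, lower in every TLI library. Dusp1, a MAP kinase phosphatase, had 1266, 1281, 399.6 and 402 CPM against 333 and 374 CPM.

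Whether the effect in DC1a cells differed from that in the other sorted populations was tested as an interaction, the log2 fold change in DC1a minus its mean in DC1b, DC2 and DC3 cells. 1 gene passed (0.00510%), and 981 (5.01%) had an unadjusted p under 0.05. This was Gstp2, a glutathione S-transferase (interaction -4.97 on the log2 scale, SE 0.46, adjusted p = 0.000182). In DC1a cells Gstp2 had 35.4, 25.1, 23.8 and 21.8 CPM after TLI and 42.8 and 37.8 CPM without it, a log2 fold change of -0.49 with an adjusted p of 0.672. The interaction rested on the untreated DC2 libraries, where Gstp2 had 0 counts beside 4293 and 2175 counts of its near-identical neighbour Gstp1. In every other library the ratio of Gstp2 to Gstp1 counts lay between 0.164 and 0.235. Reads of the copies can be split between them in counting, so the value is uncertain. Separate comparisons in the other populations had 81 genes past the threshold in DC1b cells (0.413%), 12 in DC2 cells (0.0612%) and 5 in DC3 cells (0.0255%).

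A further look, chosen after the values were seen, took genes whose 4 TLI libraries were each at least 2-fold apart from both untreated libraries and whose mean was at least 5 CPM in a group. There were 81 above (0.413% of the genes tested) and 103 below (0.526%), and they are described without a test. Exosc2, a subunit of the RNA exosome, had 21.7, 22.2, 20.3 and 25.9 CPM after TLI and 0.481 and 0.534 CPM without it, with little spread between batches, and its exons overlap an antisense gene. Lcp1, an actin-bundling protein of leukocytes, had 702, 1934, 1078 and 1083 CPM against 205 and 235 CPM, a ratio of 5.46. Tsc22d1 had 24.1, 12.4, 22.8 and 23.1 CPM against 4.22 and 2.55 CPM. Psat1, an enzyme of serine synthesis, had 29.1, 28.0, 24.6 and 27.1 CPM against 8.66 and 3.20 CPM. Also in this set were Ncaph, a condensin subunit with 19.3, 9.40, 8.01 and 4.11 CPM against 0.148 and 0 CPM, and Tacc3, a spindle protein with 116, 41.1, 30.1 and 15.5 CPM against 3.96 and 7.27 CPM.

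**Figure D4:**
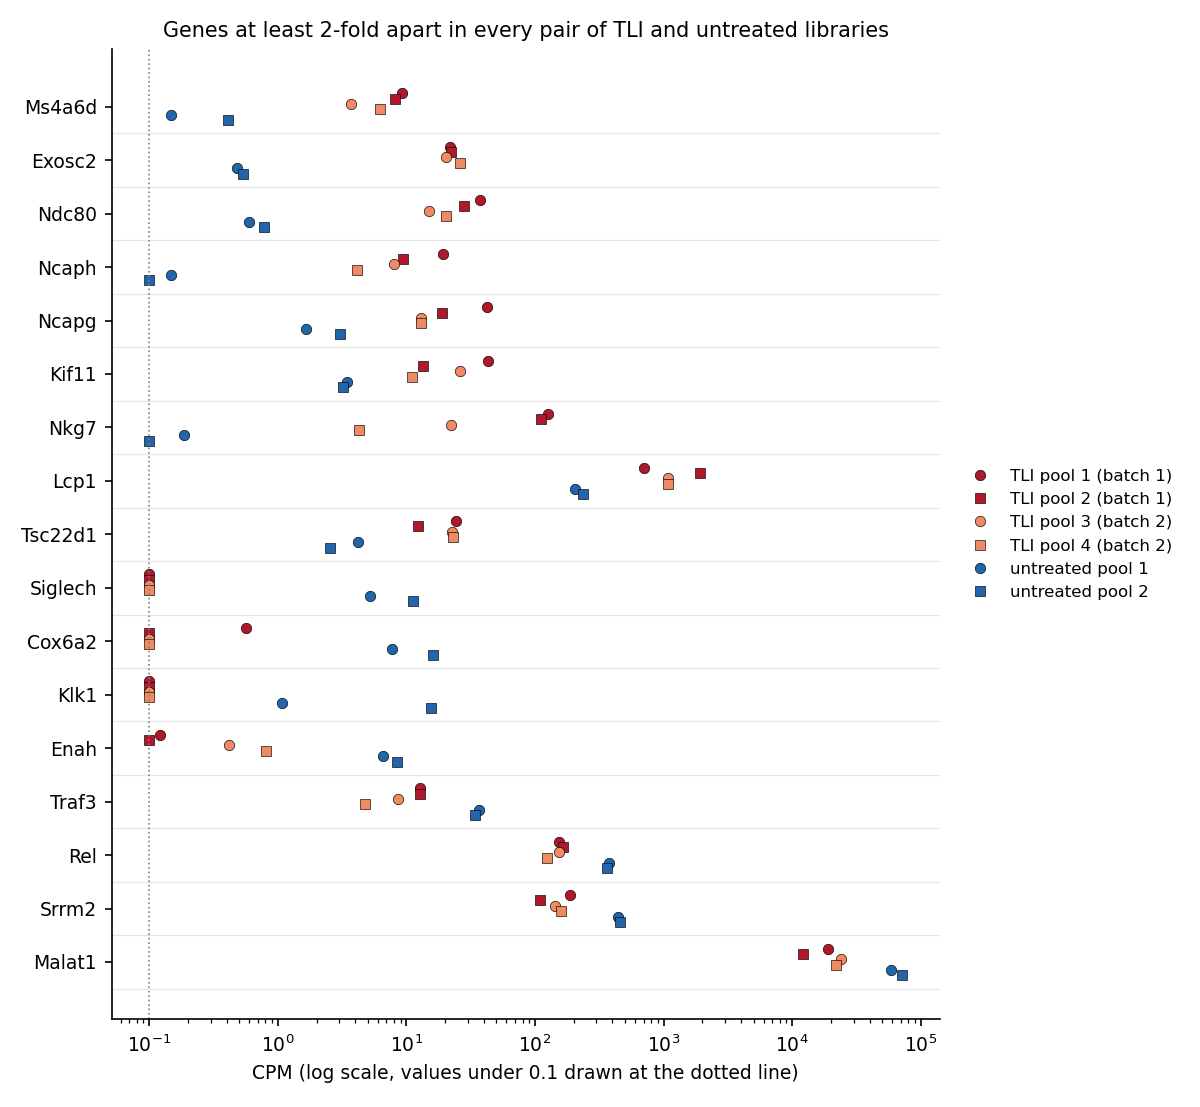
CPM of 17 genes in the 6 DC1a libraries on a log axis, 1 point per library, with values under 0.1 CPM drawn at the dotted line. In each row the 4 TLI points (red) lie at least 2-fold to the right or to the left of both untreated points (blue).

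Of the genes below, Malat1, a nuclear long non-coding RNA, was the most abundant, with 19134, 12164, 23760 and 22005 CPM after TLI and 58461 and 71713 CPM without it. The untreated mean was 3.38-fold higher, 4.16-fold against batch 1 and 2.84-fold against batch 2. Its log2 fold change was -1.88 (SE 0.48), with an adjusted p of 0.28 in edgeR and 0.0315 in DESeq2. Rel, the NF-kB subunit c-Rel, had 153, 165, 153 and 123 CPM against 374 and 363 CPM. Traf3, an adaptor that restrains non-canonical NF-kB signalling, had 12.7, 12.8, 8.56 and 4.75 CPM against 36.7 and 33.9 CPM. Cblb, a ubiquitin ligase that dampens immune activation, had 33.2, 33.7, 30.0 and 34.2 CPM against 70.8 and 71.0 CPM. Srrm2, a scaffold of nuclear speckles, had 187, 110, 142 and 158 CPM against 444 and 458 CPM.

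The sets differed in transcript class. Of the 81 genes above, 78 (96.3%) are protein coding, as are 88.6% of the 9994 tested genes with a mean of at least 5 CPM in a group. Of the 103 genes below, 54 (52.4%) are protein coding and 32 (31.1%) are annotated as TEC, unspliced transcripts that are still to be experimentally checked, which make up 1.08% of those 9994 genes. TEC genes took 0.0710%, 0.0609%, 0.140% and 0.152% of counts in TLI pools 1 to 4 and 0.218% and 0.256% in the untreated pools. LincRNA genes, Malat1 included, took 2.00%, 1.48%, 2.76% and 2.60% against 6.06% and 7.29%. Both shares were lower in every TLI library. The median log2 fold change was -1.42 over 878 TEC genes and 0.33 over 13777 protein coding genes. In levels, the median differences of TEC genes from untreated were smaller, at -1.22 (log2 CPM) for batch 1 and -0.54 for batch 2. Those of protein coding genes were 0.13 and 0.00.

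**Figure D5:**
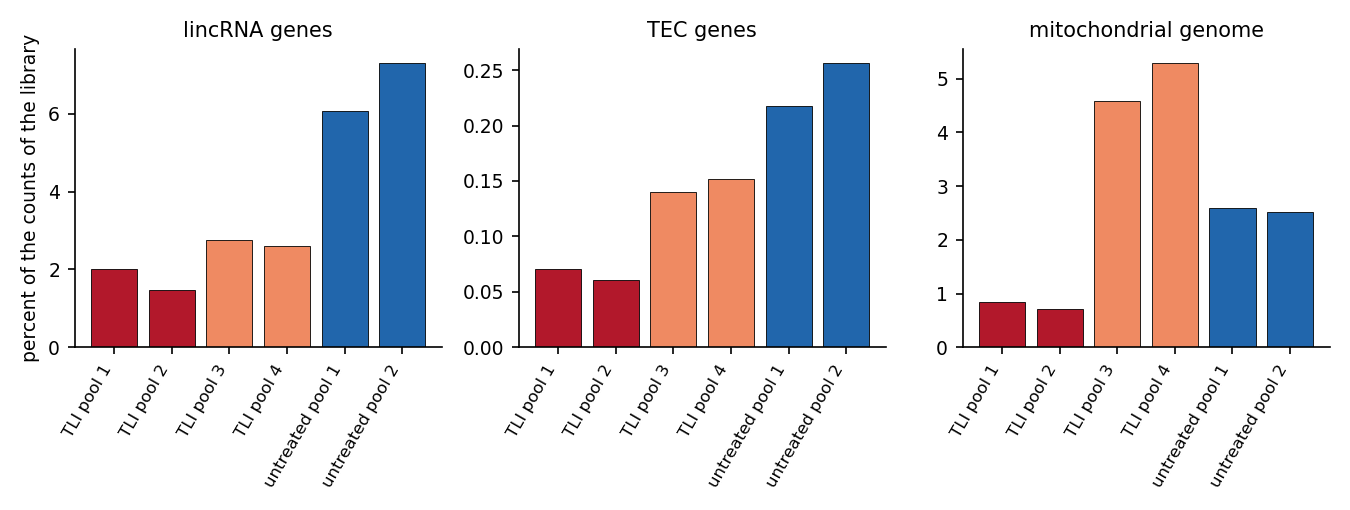
Percent of the counts of each DC1a library taken by lincRNA genes, TEC genes and genes of the mitochondrial genome, with 1 bar per library from 0. The untreated libraries (blue) are highest for the first 2 classes, and for the mitochondrial genome they lie between TLI batch 1 (dark red) and batch 2 (light red).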

How the data were processed

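The members and gene lists were chosen with earlier results of these data known. RNA of sorted spleen cells was amplified with SMART-Seq v4 chemistry and sequenced. The authors trimmed reads with Trimmomatic, aligned them to GRCm38 with HISAT2 and deposited estimated counts per gene from StringTie, in whole numbers that had not been scaled. They were tested like read counts, although the design had assumed plain counts. Here the 23 libraries were fitted with edgeR 4.0.16 in R 4.3.3 (quasi-likelihood test, TMM scaling, filterByExpr, 8 groups plus batch, Benjamini-Hochberg adjustment), which kept 19597 of 47729 genes. DESeq2 1.42.0 and limma 3.58.1 served as alternatives, beside other scalings, filters, batch terms, blocks and subsets of libraries. Tables were made in Python 3.11.15. The fit was also run on counts simulated without batch or pool effects, as a check of the code only. In the data, the common spread between libraries of a group (biological coefficient of variation) was 1.077. Symbols and positions come from GENCODE M21 on GRCm38, which named 47310 of the identifiers. The 29 lists hold 761 genes, of which 758 were found.

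Genes were named by rule: among those past the threshold with a mean of at least 5 CPM in a DC1a group and no overlap between groups, the 15 largest and 15 smallest ratios. For each list, up to 5 members past the threshold of highest CPM, or else its 2 most abundant members, were added, as were up to 10 interaction genes and Cd8a, Sirpa, Xcr1, Clec9a, Irf8 and Batf3. Some genes that the rule names are not reported here. Log2 CPM used a prior count of 2.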

Additional observations from a re-analysis of the deposited data

Results flagged for a closer look

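Among 95 sets of the 4 TLI DC1a libraries (66 genes and 29 summed lists), 3 held a library far from the others by Dixon's criterion, where chance gives about 1 in 20. Birc5 was at 433 CPM in TLI pool 1 and between 100 and 152 CPM in the other 3. Irf8 was at 1033 CPM in TLI pool 2 and between 741 and 787 CPM in the others. The costimulatory and inhibitory ligands summed to 2930.2 CPM in TLI pool 2 and to between 1944 and 2021 CPM in the others. The effect on Gstp2 in DC1a cells differed from its mean in the other populations by -4.97 on the log2 scale (edgeR adjusted p = 0.000182), and this rested on counts of 0 in both untreated DC2 libraries.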

How the results depend on the processing

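The count of 2 genes past the threshold moved with most settings. It was 31 without a filter on low counts (20 higher, 11 lower) and 0 with at least 10 counts in every DC1a library (1127 at an unadjusted p under 0.05). It was 0 without a batch term (759 unadjusted), 223 (75 higher, 148 lower) in the DC1a libraries alone with a batch term, 0 in them without it (770 unadjusted), 0 in those of batch 1 (3660 unadjusted), and 0 in a fit, added after the data were seen, of the batch 2 TLI against the untreated libraries (619 unadjusted). limma voom gave 40 (27 higher, 13 lower) and DESeq2 748 (526 higher, 222 lower). RLE scaling and robust dispersion gave 2 each, both shared with the main count. The libraries of batch 1 gave 2 higher and 0 lower, of which 1 was shared, Ms4a6d (log2 fold change 4.95, adjusted p = 0.0280). Leaving out 1 library gave 0 to 1, with 0 left without TLI pool 1, 2 or 4 or untreated pool 2. The pool number as a replicate block gave 0 (1788 unadjusted). Residuals of same-numbered TLI and untreated DC1a libraries of batch 1 correlated at 0.0074. Those of DC1a and DC1b libraries from the same mice correlated at only 0.0532 after TLI and 0.0067 without it. A value near 0 therefore cannot tell whether the numbers pair the mice. RLE scaling moved the median log2 fold change of all genes from 0.15 to 0.21 and the unadjusted split from 807 higher and 1105 lower to 902 and 937.

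The interaction count of 1 became 6 without a filter, 0 in the libraries of batch 1 (1384 unadjusted), 2 with voom and 296 with DESeq2 (187 higher, 109 lower), and was 1 without each DC1a library in turn. It was 1 with the mouse pool as a replicate block. Of 29 gene lists, 23 had a median above that of all genes, 13 with the batch 2 TLI libraries alone and 21 to 23 without each library in turn. Library pairs of 1 kind had r between 0.903 and 0.911, above the means across treatments of 0.860 for TLI batch 1 and 0.878 for batch 2. The margin between the kinds of pairs was larger over the 500 most variable genes. The cause of these shifts was not tested.

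Log2 fold changes of named genes took the opposite sign, none of them past the threshold in the main fit, as follows. With the batch 2 TLI libraries alone these were Clec12a (0.32), Rbpj (0.32), Lyz2 (-0.62), Cd14 (-2.81), Stfa2l1 (0.71), Cd37 (-0.73), Trbc2 (-3.24), Hba-a1 (-1.95), Hbb-bs (-1.11), Clec1b (1.76), Btg2 (-0.59), Pmaip1 (-0.60), Rpa3 (1.36), H2afx (-1.43), Bcl2a1d (0.36), Bcl2a1a (0.49), Ifi35 (-1.08), Ifi27l2a (0.60), Cd74 (-0.58), H2-Aa (-0.28), B2m (0.57), Cd48 (0.57), Cd83 (-1.04), Ccl5 (0.14), Il1b (-2.18), Lgals1 (0.66), Clec9a (0.24), Unc93b1 (-0.20), Cox8a (0.41), Cox6b1 (0.54), Rpl32 (0.43), Ldha (-0.53), Aldoa (-0.34), mt-Co1 (1.07), mt-Co3 (1.37) and Cd8a (-0.37). Without a batch term they were Stfa2l1 (0.14), Clec1b (0.83), Rpa3 (0.63), Ifi35 (-0.14), Ifi27l2a (0.03), Cd48 (0.19), Il1b (-0.10), Lgals1 (0.16), mt-Co1 (0.35) and mt-Co3 (0.55). In the DC1a libraries alone without a batch term they were Stfa2l1 (0.09), Clec1b (0.77), Rpa3 (0.58), Ifi35 (-0.19), Cd48 (0.14), Il1b (-0.15), Lgals1 (0.11), mt-Co1 (0.30) and mt-Co3 (0.49). In the libraries of batch 1 they were Klrk1 (-0.03), Pf4 (0.03) and Sirpa (-0.73), in the DC1a libraries of batch 1 Klrk1 (-0.04), Pf4 (0.02) and Sirpa (-0.74), and in the DC1a libraries with a batch term Klrk1 (-0.07), Pf4 (0.00) and Sirpa (-0.76). Leaving out 1 library in turn put Pf4 between -1.06 and 0.32. The reversals were, without TLI pool 1, Cd48 (0.13) and Ccl5 (0.19), TLI pool 2 Pf4 (0.13) and Ccl5 (0.31), TLI pool 4 Pf4 (0.05), untreated pool 1 Ccl5 (0.06) and untreated pool 2 Pf4 (0.32) and Cd48 (0.02). Under RLE scaling and under DESeq2 it was Cd48 (0.01 in each). In all, 74 values of single genes changed sign, 25 became past the threshold, 26 fell short of it, 70 moved and 1329 did not. With 2 untreated libraries, and none in batch 2, small changes of single genes were out of reach, and the batch cannot be told apart from differences between the pools.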

Other observations

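The lists not yet described in counts gave the following, none with a member past the adjusted threshold. Over all genes tested, 4.12% were higher and 5.64% lower at an unadjusted p under 0.05, and several of these counts are near those shares. Of 22 cDC2 markers, 3 were higher and 1 lower at an unadjusted p under 0.05, with summed levels of 548, 558, 898 and 901 CPM in TLI pools 1 to 4 and 677 and 781 CPM in the untreated pools. Clec12a, an inhibitory lectin that cDC1 also express, made up most of these sums with 384, 376, 668 and 717 CPM against 514 and 597 CPM. Irf4, the leading factor of cDC2, had 4.45, 1.97, 1.61 and 1.97 CPM against 7.18 and 6.74 CPM and was lower in every TLI library. Of 8 tested platelet and megakaryocyte markers, 1 was higher. Their sum of 6.48 to 62.8 CPM after TLI was mostly Clec1b, whose exons overlap those of Clec9a, so that its counts are uncertain.

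Of the monocyte and macrophage markers, 6 of 20 tested were higher and none lower at an unadjusted p under 0.05. C1qb, a complement subunit made by macrophages, had 8.66, 6.36, 4.41 and 0 CPM against 0 in both untreated pools. Cd14, a receptor for bacterial lipopolysaccharide, had 137 and 292 CPM in TLI batch 1, 6.37 and 6.86 CPM in batch 2, and 36.3 and 56.2 CPM without treatment. Among 22 Toll-like receptors and adaptors, 2 were higher and 1 lower, and Unc93b1, the chaperone of endosomal Toll-like receptors, had 307, 601, 96.0 and 99.7 CPM against 119 and 106 CPM.

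Of 77 respiratory chain subunits, 26 were lower and 5 higher, and of 22 glycolysis genes, 6 were higher and 1 lower, at an unadjusted p under 0.05. MHC class II genes had 5 of 17 higher, and MHC class I peptide loading genes 3 higher and 2 lower of 21. Immediate early and NF-kB feedback genes had 5 of 28 higher, but 1 higher and 4 lower with the batch 2 libraries alone. Their median difference from untreated was 0.74 (log2 CPM) for batch 1 and -0.74 for batch 2. Heat shock and unfolded protein genes had 5 higher and 1 lower of 23, and 0 higher and 2 lower with the batch 2 libraries alone. Tolerance-linked genes had 3 higher and 1 lower of 22, and apoptotic cell uptake genes 2 higher of 23. The neutrophil list had 3 of 18 higher, the costimulatory and inhibitory ligands 1 of 22, and the maturation genes 1 higher and 2 lower of 30.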
